A study of Homo sapiens with 12 samples.

Results

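CD69, the early activation antigen of lymphocytes, was followed as 1 gene of the 55782 in the deposited count table, in every antibody arm and at every dose of a co-culture experiment. It was taken from the table by its gene symbol. The 12 libraries came from mixed cultures of Jurkat cells, which derive from a human T cell leukaemia and are labelled as LAG3+ and PD1+, and Raji cells, which derive from a human Burkitt lymphoma of B cells and are labelled as carrying PDL1. Every culture was stimulated for 24 h through the superantigen SED, loaded onto the Raji cells at 100 ng/ml. The arms were isotype plus isotype, anti-LAG3 (MK4280) plus isotype, anti-PD1 (MK3475) plus isotype, and both antibodies together (the combination). Doses were 1, 0.1 and 0.01 µg/ml for each of the 2 antibodies of an arm, with 1 library per condition, made from several wells pooled before RNA extraction. No condition was repeated, so every p-value rests on how much these single libraries scatter, and that scatter may be technical.

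CD69 is a C-type lectin-like membrane protein that forms a disulphide-linked homodimer and is among the earliest surface proteins to appear when a T cell is stimulated through its receptor. Its transcription depends on the signal that runs from the T cell receptor (TCR) through protein kinase C and Ras to ERK, and the protein binds the sphingosine 1-phosphate receptor S1PR1 and takes it off the surface, which holds activated lymphocytes in tissue. SED links MHC class II on the B cell to the TCR, PD1 is an inhibitory receptor that binds PDL1, and LAG3 is an inhibitory receptor that binds MHC class II. B cells also make CD69 when stimulated, so its RNA in a mixed culture cannot be assigned to either line, and a change in the number of cells that express it cannot be told apart from a change in RNA per cell.

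The libraries held 23593973 to 36581754 counts. PDCD1, which encodes PD1, stood at 179 to 228 CPM (counts relative to library size, after TMM scaling of the libraries), and CD274, which encodes PDL1, at 81.1 to 97.8 CPM. LAG3 had 0 to 2 counts in every library, so the deposited counts do not show the receptor named in the label of the Jurkat line. All 24 T cell and all 28 B cell marker genes that were followed were counted in the libraries, though the T cell marker LAT was low, at 0.30 to 1.12 CPM. CD69 lies on GRCh38 chromosome 12, 9752486 to 9760901, on the minus strand. GENCODE 29 gives it 4 transcripts, of which CD69-201 has 5 exons, 1676 bp of RNA and 597 bp of coding sequence. The exons of all 4 transcripts together cover 2832 bp, the same length as in the count table. No annotated gene overlaps it, and the nearest, CLECL1, ends 19.2 kb away.

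CD69 RNA was higher with more antibody in each of the 3 antibody arms and stayed within a narrow range in the isotype arm. In the isotype libraries it had 402, 363 and 337 counts at 1, 0.1 and 0.01 µg/ml, which is 11.2, 13.5 and 12.2 CPM. Anti-LAG3 gave 886, 489 and 320 counts, or 28.1, 19.5 and 12.1 CPM. The highest anti-LAG3 dose was thus 2.5-fold the isotype library of the same dose, and the lowest was level with it. Anti-PD1 gave 735, 389 and 269 counts, or 26.0, 15.9 and 11.5 CPM. In the combination there were 1333, 737 and 391 counts, or 52.2, 27.3 and 13.6 CPM. The combination was the highest arm at every dose, by a margin that was large at 1 µg/ml and small at 0.01 µg/ml. Scaled by gene length, CD69 ran from 12.9 TPM (counts relative to gene length and library total) in the isotype library at 1 µg/ml, where 53.2% of the tested genes were lower, to 61.9 TPM in the combination at 1 µg/ml, where 83.5% were lower.

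**Figure D1:**
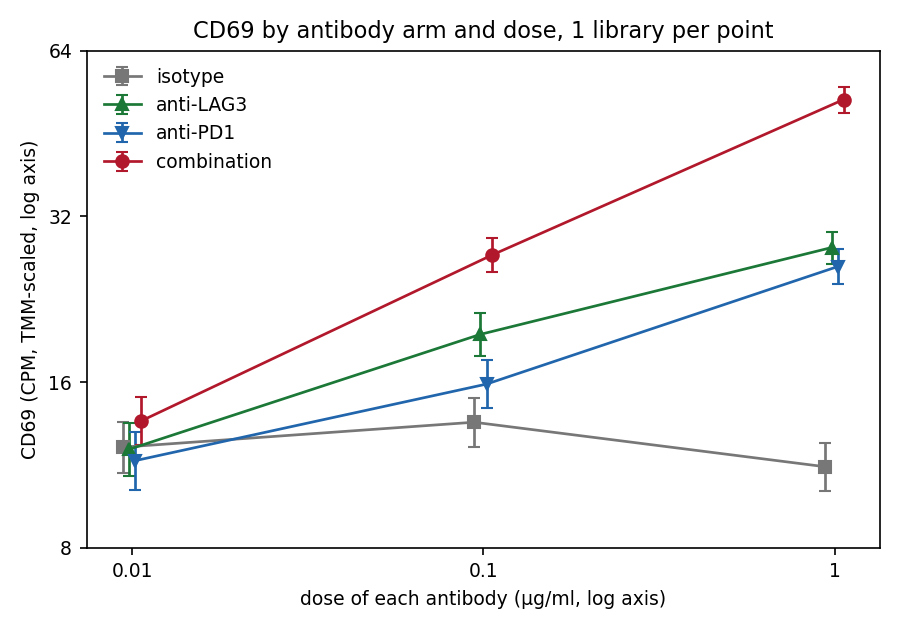
CD69 in CPM (vertical log axis) against the dose of each antibody in µg/ml (horizontal log axis, points shifted slightly so that they do not hide each other), with 1 library per point and 95% Poisson intervals for counting error only. All 4 arms lie between 11.5 and 13.6 CPM at 0.01 µg/ml, and at 1 µg/ml they spread from 11.2 CPM in isotype to 52.2 CPM in the combination.

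The counting intervals were narrow against these differences. The 95% Poisson interval was 49.4 to 55.1 CPM for the combination at 1 µg/ml, and 10.2 to 12.4 CPM for isotype at that dose. The 2 single antibodies overlapped at 1 µg/ml, at 26.28 to 30.01 CPM for anti-LAG3 and 24.1 to 27.9 CPM for anti-PD1. At 0.01 µg/ml the intervals of all 4 arms overlapped, the lowest running from 10.2 to 13.0 CPM in anti-PD1 and the highest from 12.3 to 15.0 CPM in the combination. These intervals leave out the spread between cultures, which no condition measures.

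The 12 libraries could be put in order, with the largest difference between any 2 isotype libraries, 0.27 on the log2 scale of CPM, as the yardstick of spread. The combination at 1 µg/ml came first, 0.89 log2 above the next, anti-LAG3 at 1 µg/ml. That library, the combination at 0.1 µg/ml (27.3 CPM) and anti-PD1 at 1 µg/ml followed each other by less than the isotype spread. A step of 0.41 log2 led down to anti-LAG3 at 0.1 µg/ml, and another of 0.30 to anti-PD1 at 0.1 µg/ml. From there down, no neighbours differed beyond the isotype spread, and this lowest part of the order held all 3 isotype libraries and the 0.01 µg/ml library of every antibody arm. The combination at 0.1 µg/ml therefore stood within the isotype spread of each single antibody at a 10-fold higher dose.

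The range of CD69 over the doses differed between the arms. The highest isotype library was 1.2-fold the lowest, against 2.33-fold with anti-LAG3, 2.25-fold with anti-PD1 and 3.84-fold with the combination. From 0.01 to 0.1 µg/ml CD69 was higher by 1.00 ± 0.09 log2 (counting error) in the combination, and from 0.1 to 1 µg/ml by a further 0.94 ± 0.07. Its 2 steps were nearly equal. Anti-LAG3 had steps of 0.69 ± 0.10 and 0.52 ± 0.08, and anti-PD1 steps of 0.46 ± 0.11 and 0.71 ± 0.09. The isotype steps were 0.15 ± 0.11 and -0.27 ± 0.10. A straight line of log2 level on log10 dose per arm left every library within 0.14 log2 of its line, and the library farthest from its line was isotype at 0.1 µg/ml.

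The question of whether CD69 followed the dose of antibody was tested as a difference of slopes, in log2 per 10-fold dose, between an antibody arm and isotype, over 15535 genes. The combination slope exceeded that of isotype by 1.03 ± 0.09 (SE, 95% interval 0.85 to 1.21), which means that CD69 came near to doubling per 10-fold dose. Its adjusted p was 3.75e-08 by the quasi-likelihood test of edgeR after Benjamini-Hochberg adjustment, the test behind every adjusted p given here unless the authors' table is named. In that comparison 4.63% of the tested genes were called, and CD69 ranked 8 by p. For anti-LAG3 the difference was 0.67 ± 0.09 (0.48 to 0.85, adjusted p = 0.00111), where 0.0708% of genes were called and CD69 ranked 2. For anti-PD1 it was 0.66 ± 0.09 (0.47 to 0.85, adjusted p = 0.00139), where 0.264% were called and CD69 ranked 1. All 3 differences share the same isotype libraries. The isotype slope itself was -0.06 ± 0.07 (adjusted p = 0.756).

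The 2 single-antibody calls rested in part on single libraries, and the combination call did not. Without the isotype library at 1 µg/ml, which had the lowest CD69 of all 12, the anti-LAG3 slope difference was 0.45 (adjusted p = 1.00) and that of anti-PD1 0.45 (adjusted p = 1.00). In these comparisons 1 and 0 of all genes then passed. The anti-LAG3 call was also lost without the anti-LAG3 library at 1 µg/ml (0.76, adjusted p = 0.314) or at 0.01 µg/ml (0.59, adjusted p = 0.160). The anti-PD1 call was also lost without the anti-PD1 library at 1 µg/ml (0.52, adjusted p = 0.148). The combination slope difference passed in all 19 alternatives run, at 0.82 to 1.24, with a highest adjusted p of 0.00551.

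**Figure D2:**
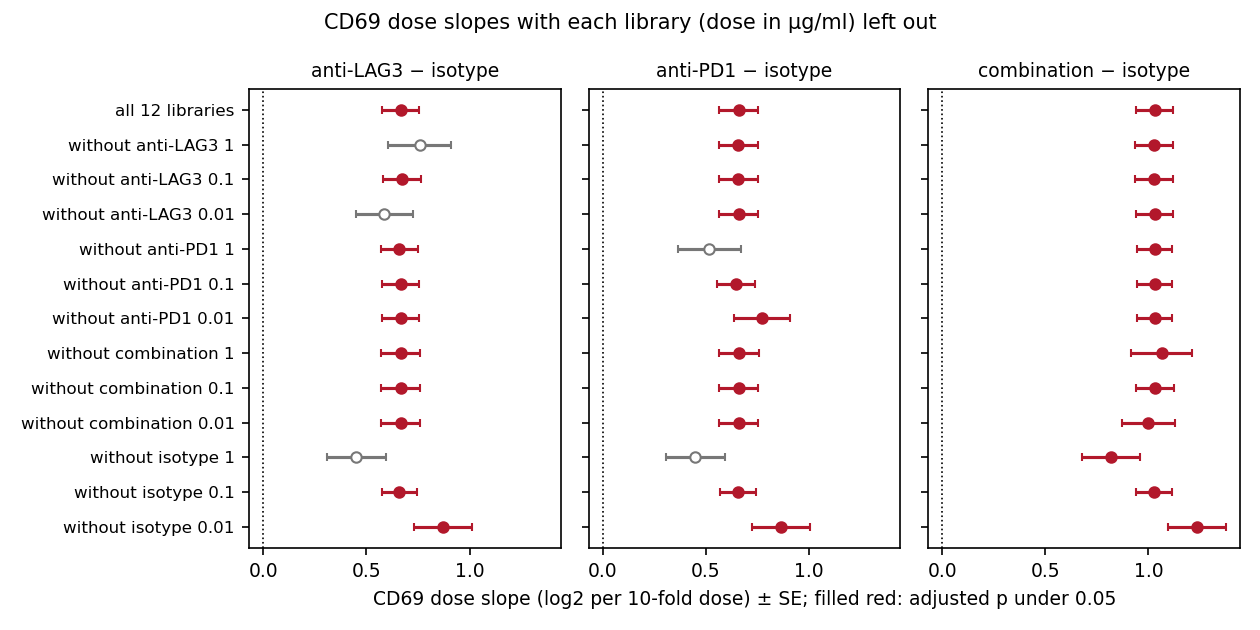
CD69 dose slope minus that of isotype (log2 per 10-fold dose, with its SE) for each antibody arm, with all 12 libraries in the top row and with 1 library left out in each row below, named by arm and dose in µg/ml; filled red points passed an adjusted p of 0.05. Every point is above 0, the combination passed in every row, anti-LAG3 failed in 3 rows and anti-PD1 in 2.

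The slopes of the antibody arms were then compared with each other. The 2 single antibodies had nearly the same slope, with a difference (anti-PD1 minus anti-LAG3) of -0.01 ± 0.09, a 95% interval of -0.19 to 0.18 and an adjusted p of 0.997. In that comparison 0% of genes were called by edgeR, 845 had an unadjusted p under 0.05, and DESeq2 called 1. The combination was steeper than anti-LAG3 by 0.37 ± 0.09 (0.19 to 0.54, adjusted p = 0.0384, 0.766% of genes called) and steeper than anti-PD1 by 0.37 ± 0.09 (0.19 to 0.55, adjusted p = 0.0481, 0.644% called). Both calls lie close to the threshold. The excess over anti-LAG3 did not pass with DESeq2 (0.37, adjusted p = 0.291), and the excess over anti-PD1 did not pass with DESeq2 (0.38, adjusted p = 0.252) or with upper-quartile scaling (0.36, adjusted p = 0.0648). Each was also lost without either outer-dose library of the combination, as when its 1 µg/ml library was left out (0.40, adjusted p = 0.36, over anti-LAG3, and 0.41, adjusted p = 0.504, over anti-PD1). Leaving out any of the 3 anti-LAG3 libraries also ended both calls, and leaving out anti-PD1 at 1 or 0.01 µg/ml ended that over anti-PD1.

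**Figure D3:**
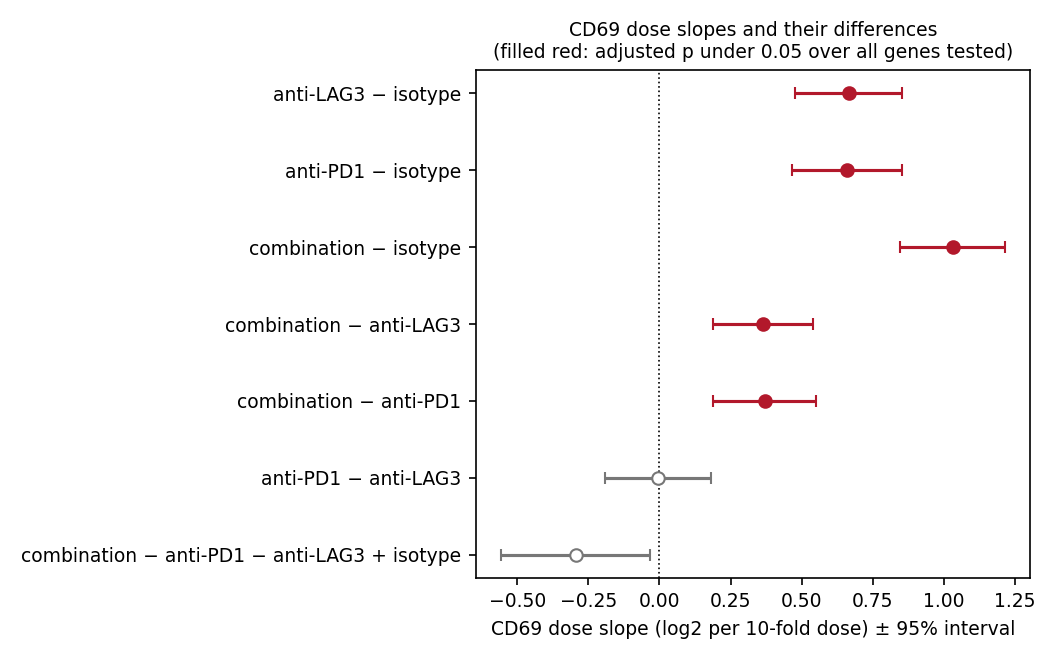
Differences between the CD69 dose slopes of the arms (log2 per 10-fold dose, horizontal axis) with their 95% intervals; filled red points passed an adjusted p of 0.05. The 3 differences from isotype lie at 0.66 to 1.03, the 2 differences of the combination from a single antibody at 0.37, the difference between the single antibodies at -0.01 and the departure from the sum of both single effects (bottom) at -0.29.

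The same model gave CD69 at the ends of the dose range. At 1 µg/ml the fitted difference from isotype was 2.16 ± 0.11 log2 in the combination (adjusted p = 2.18e-13, 5.78% of genes called), 1.28 ± 0.11 in anti-LAG3 (adjusted p = 7.38e-08, 4.54% called) and 1.11 ± 0.11 in anti-PD1 (adjusted p = 1.99e-06, 0.882% called). At 0.01 µg/ml no arm differed from isotype past the threshold. The fitted differences there were 0.10 ± 0.12 in the combination (adjusted p = 0.833, 0.103% of genes called), -0.05 ± 0.13 in anti-LAG3 (adjusted p = 0.867, 5.19% called) and -0.21 ± 0.13 in anti-PD1 (adjusted p = 0.392, 6.66% called). Without isotype at 0.01 µg/ml they were -0.25, -0.40 and -0.55 in the same order. CD69 thus passed at the highest dose in each arm and in none at the lowest. Without the isotype library at 1 µg/ml, the difference at 1 µg/ml was 0.93 in anti-LAG3 (adjusted p = 0.263) and 0.77 in anti-PD1 (adjusted p = 0.904), and without the anti-PD1 library at 1 µg/ml it was 0.90 in anti-PD1 (adjusted p = 0.147).

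Averaged over the doses, no arm differed from another past the threshold of adjusted p for CD69. The mean level was 12.3 ± 1.16 CPM (SD, n = 3) in isotype. It was 19.9 ± 8.02 CPM with anti-LAG3, 17.8 ± 7.40 CPM with anti-PD1 and 31.0 ± 19.6 CPM with the combination. The model of arm plus dose treats unequal dose responses of the arms as spread. In it the combination differed from isotype by 1.20 ± 0.34 log2 (95% interval 0.36 to 2.03, adjusted p = 0.574, 0.00644% of genes called). The difference from isotype was 0.62 ± 0.35 in anti-LAG3 (-0.23 to 1.48, adjusted p = 0.348, 10.0% called). It was 0.46 ± 0.36 in anti-PD1 (-0.41 to 1.34, adjusted p = 0.568, 3.82% called). The interval of the combination thus lay above 0, though its adjusted p did not pass. The combination differed from anti-LAG3 by 0.57 ± 0.33 (adjusted p = 0.378, 5.75% called) and from anti-PD1 by 0.73 ± 0.33 (adjusted p = 0.400, 0.354% called). Anti-PD1 differed from anti-LAG3 by -0.16 ± 0.34 (adjusted p = 0.988). Of that comparison's genes 0% were called by edgeR and 0 by DESeq2, with 691 at an unadjusted p under 0.05. These means moved with single libraries. Leaving out the isotype library at 1 µg/ml gave differences from isotype of 0.75, 0.18 and 0.02 in the combination, anti-LAG3 and anti-PD1, and leaving out that at 0.01 µg/ml gave 1.54, 0.98 and 0.81. Without the combination at 1 µg/ml its excess was 0.23 over anti-LAG3 and 0.39 over anti-PD1. The coefficient of variation that edgeR fitted for CD69 was 28.3% in this model and 4.37% in the slope model. Both values describe scatter about the fitted model. Neither measures variation between repeated cultures, since no condition was repeated. An exact two-sided permutation test on log2 CPM gave p = 0.1 for the combination against isotype, the smallest p possible with 3 libraries in each arm. Adjusted over the 6 pairs of arms it was 0.6. Those 2 arms did not overlap, but only by 13.6 against 13.5 CPM at the closest. Scaled by library total alone these 2 libraries stood at 13.6 and 13.7 CPM, and the exact permutation p was 0.2.

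Whether the combination exceeded the single antibodies together depended on the scale. At 1 µg/ml it was 1.86-fold the higher single antibody, at 0.1 µg/ml 1.39-fold and at 0.01 µg/ml 1.13-fold. On the linear scale, isotype plus the 2 single increments at 1 µg/ml came to 42.8 CPM, and the combination was 9.37 ± 2.04 CPM (counting error) above that sum. At 0.1 µg/ml it was 5.38 ± 1.71 CPM above a sum of 21.9 CPM, and at 0.01 µg/ml 2.19 ± 1.37 CPM above a sum of 11.4 CPM. The combination was thus above the sum at all 3 doses, with the gap at 0.01 µg/ml within 2 counting errors. Counting errors leave out the spread between cultures, and each gap, on either scale, rests on 1 library per arm. On the log scale the order turned at the highest dose. Multiplying isotype by both single folds gave 64.9 CPM at 1 µg/ml, and the combination was 0.32 ± 0.11 log2 below that product, against 0.25 ± 0.14 above it at 0.1 µg/ml and 0.25 ± 0.16 above it at 0.01 µg/ml. The slope test of this log-scale departure (the combination plus isotype, minus both single antibodies) gave -0.29 ± 0.13 (95% interval -0.56 to -0.03, adjusted p = 0.700). Leaving out the isotype library at 1 µg/ml moved it to -0.08, and leaving out that at 0.01 µg/ml to -0.50. In it 0% of genes were called by edgeR and 0 by DESeq2, with 1029 at an unadjusted p under 0.05. For the arm means the departure was 0.11 ± 0.49 (adjusted p = 0.921, 15.3% of genes called).

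**Figure D4:**
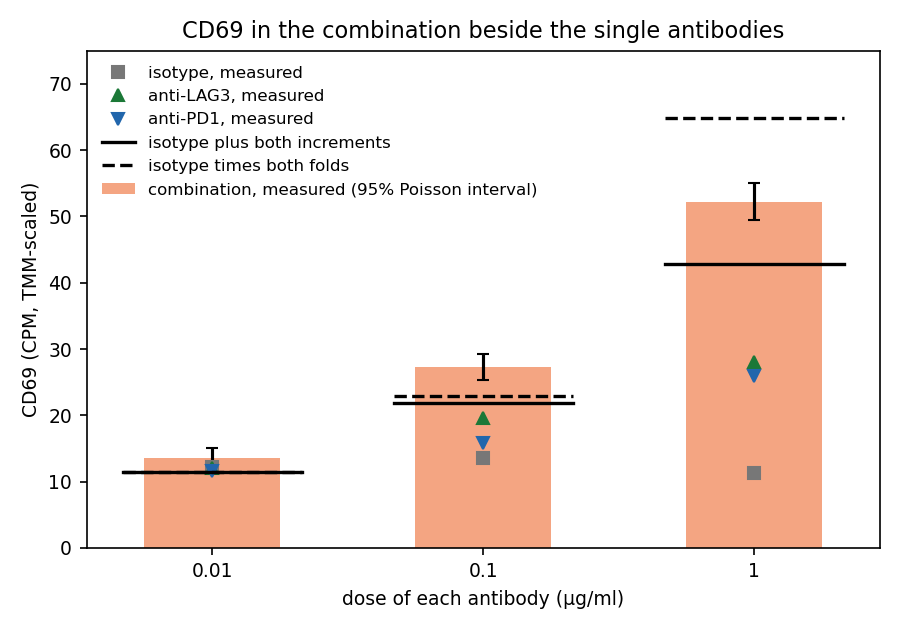
CD69 in CPM (vertical axis from 0) at each dose: bars show the combination with its 95% Poisson interval, symbols the other 3 arms, the solid line isotype plus both single increments and the dashed line isotype times both single folds. At 1 µg/ml the bar (52.2 CPM) lies between the solid line (42.8) and the dashed line (64.9), and at 0.1 µg/ml it lies above both (21.9 and 22.9).

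The balance of the 2 lines was followed beside these differences by marker genes. The mean log2 CPM of 24 T cell markers minus that of 28 B cell markers was -1.90, -1.91 and -1.87 in isotype and -1.77, -1.87 and -1.79 in the combination at 1, 0.1 and 0.01 µg/ml. It was -1.66, -1.68 and -1.74 in anti-LAG3, and -1.76, -1.84 and -1.97 in anti-PD1. The mean exceeded that of isotype by 0.20 in anti-LAG3 (exact permutation p = 0.1), by 0.04 in anti-PD1 (exact permutation p = 0.6) and by 0.09 in the combination (exact permutation p = 0.1). In both single-antibody arms the balance was higher at higher doses, as CD69 was, and in the combination it was not ordered by dose. The T markers summed to 1783 to 2011 CPM with isotype, 2030 to 2204 CPM with anti-LAG3, 1896 to 2139 CPM with anti-PD1 and 1936 to 2206 CPM with the combination. The B markers summed to 10840 to 12410, 11020 to 11150, 11300 to 11680 and 11540 to 12070 CPM in the same order of arms, and no marker was at 0 in all libraries. With the balance as a covariate, the CD69 slopes against isotype still passed in all 3 arms, while the excess of the combination over anti-LAG3 was 0.34 (adjusted p = 0.0989) and that over anti-PD1 0.29 (adjusted p = 0.876).

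The authors' deposited tables compare each antibody library with the 3 isotype libraries together. For CD69 they give a log2 fold change of 2.09 ± 0.15 (SE) for the combination at 1 µg/ml with an adjusted p of 8.73e-39, and of 1.15 ± 0.17 at 0.1 µg/ml with an adjusted p of 1.21e-07. For anti-LAG3 at 1 µg/ml the authors' deposited table has 1.19 ± 0.17 with an adjusted p of 7.35e-10, and for anti-PD1 at that dose it has 1.08 ± 0.17 with an adjusted p of 7.84e-07. At 0.1 µg/ml the authors' deposited tables have 0.66 ± 0.18 for anti-LAG3, with no adjusted p, and 0.37 ± 0.19 for anti-PD1, with an adjusted p of 0.9999. All 3 values at 0.01 µg/ml in the authors' deposited tables lie within their standard errors of 0, at -0.02 ± 0.19, -0.09 ± 0.20 and 0.15 ± 0.19 for anti-LAG3, anti-PD1 and the combination. By p, CD69 ranked 9 and 3 in the authors' deposited tables for the combination at 1 and 0.1 µg/ml, 18 and 121 in those for anti-LAG3, and 6 and 557 in those for anti-PD1.

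The genes around CD69 are given next by their role, each as the dose slope of the combination minus that of isotype, in log2 per 10-fold dose. Over all tested genes the median of this quantity was 0.01, with 1.83% of genes rising past the threshold and 2.80% falling. At an unadjusted p under 0.05 (edgeR) stood 17.8% of the tested genes, in either direction. That share is the background for the unadjusted counts in the lists below. Among 33 genes of the path from the TCR to Ras and ERK, 5 rose and 4 fell, with a median of 0.02. Among the risers were LCP2 (0.88 ± 0.07), the adaptor SLP-76, and PRKCH (0.77 ± 0.06), the protein kinase C isoform eta. Also among them were RASAL3 (0.39 ± 0.06) and RASA1, GTPase-activating proteins that switch Ras off. The RASAL3 call was lost without isotype at 1 µg/ml (0.426, adjusted p = 0.1321). The fallers were LCK, the first kinase of the TCR signal, CD3E and CD3G, subunits of the receptor, and MAPK3, which encodes ERK1. LCP2 stood at 118, 57.0 and 34.5 CPM in the combination at 1, 0.1 and 0.01 µg/ml and at 33.7, 34.9 and 32.8 CPM in isotype. In the single arms PRKCH alone of these 33 rose, by 0.31 in anti-LAG3, where 0.0579% of all genes rose, and by 0.37 in anti-PD1, where 0.0837% did. Genes of this path thus moved in both directions.

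Of 30 tested transcription factors chosen as candidate regulators of CD69, 8 rose in the combination and 0 fell, with a median of 0.08, and DESeq2 called 4 up. Whether each of the 30 acts on the CD69 locus was not tested. With the combination library at 1 µg/ml left out, 1 of the 30 fell. The 8 were the EGR factors EGR1, EGR2 and EGR3, the NF-kB subunits REL, NFKB1 and NFKB2, the AP-1 subunit FOS and NFATC1. EGR1, an immediate early target of ERK, had 82.5, 41.2 and 19.7 CPM in the combination at 1, 0.1 and 0.01 µg/ml against 18.2, 16.9 and 18.6 CPM in isotype. Its slope difference was 1.04 ± 0.08 (adjusted p = 3.59e-09), and it also rose by 0.82 in anti-LAG3 and by 0.55 in anti-PD1. EGR3 had 17.2, 6.32 and 1.46 CPM in the combination against 2.04, 1.98 and 1.92 in isotype, a slope difference of 1.65 ± 0.19. EGR2 rose by 1.13 ± 0.21 and NFATC1, which encodes a calcium-dependent factor, by 0.27 ± 0.06. The EGR2 call was lost without the combination library at 1 µg/ml (0.87, adjusted p = 0.2405) or isotype at that dose (1.37, adjusted p = 0.2281). Leaving out the combination library at 1 µg/ml gave NFATC1 a slope difference of 0.13 (adjusted p = 0.619), and leaving out that at 0.01 µg/ml gave 0.41.

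Of 49 TCR-induced early genes tested, 18 rose and 1 (MYC) fell, with a median of 0.22 beside 0.01 for all genes. Several of them are also counted among the factors above. Beside the EGR factors, those named by rule included NR4A1 (1.51 ± 0.21), an orphan nuclear receptor used as a reporter of TCR signal, IER3 (0.87 ± 0.11), an ERK-induced survival gene, and DUSP2 (0.55 ± 0.06), a phosphatase of MAP kinases. The NR4A1 call was lost without the combination at 1 µg/ml (1.276, adjusted p = 0.1149). That of DUSP2 was lost without isotype at 1 µg/ml (0.378, adjusted p = 0.05742). NR4A1 had 46.0, 16.0 and 7.41 CPM in the combination at 1, 0.1 and 0.01 µg/ml, and 6.60, 8.31 and 8.29 CPM in isotype. At 0.01 µg/ml the combination was thus within the isotype range. The 18 risers include XCL1 and XCL2, which had at most 0.0724 and 0.181 CPM in any isotype library. These 2 genes passed the filter on low counts only through antibody libraries, so they could hardly have been counted as fallers. In anti-LAG3 5 of the 49 rose (EGR1, EGR3, IER3, DUSP2 and CRTAM) and in anti-PD1 2 (EGR1 and IER3), against 0.0579% and 0.0837% of all genes. These counts of risers in the combination depended on the libraries at the outer doses. Without isotype at 1 µg/ml there were 3 early genes, 2 transcription factors and 2 genes of the Ras path, and without isotype at 0.01 µg/ml 6, 2 and 3. Without the combination library at 1 µg/ml there were 9, 3 and 3, and without that at 0.01 µg/ml 11, 4 and 3. The 4 fallers of the Ras path were 0 without isotype at 1 µg/ml or the combination at 0.01 µg/ml. Calls over all tested genes, in either direction, dropped too, from 719 to 34 without isotype at 1 µg/ml. That background also applies to the surface and B cell counts below.

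Other surface proteins of activated lymphocytes were compared, 21 of which were tested beside CD69. In the combination 8 rose and 1 (TNFRSF8, which encodes CD30) fell, with a median of 0.11. CRTAM, an adhesion receptor of activated T cells, had 8.46, 1.63 and 0.348 CPM in the combination at 1, 0.1 and 0.01 µg/ml and 0.363, 0.410 and 0.651 CPM in isotype, with a slope difference of 2.75 ± 0.34. IL2RA, the alpha chain of the interleukin 2 receptor, had 8.65, 2.26 and 1.32 CPM against 1.29, 1.68 and 1.56 CPM, with a slope difference of 1.58 ± 0.24. Without the combination at 1 µg/ml that of IL2RA was 0.91 (adjusted p = 0.304), and without isotype at 0.01 µg/ml that of CRTAM was 2.495 (adjusted p = 0.05585). Both were far lower than CD69 in these libraries, at 1.93 TPM for CRTAM and 2.55 TPM for IL2RA against 24.4 TPM for CD69, as means over the 12 libraries. CD226, a costimulatory receptor, rose by 0.76 ± 0.11, and the tetraspanin CD82 by 0.26 ± 0.04. The CD226 call was lost without the combination at 1 µg/ml (0.599, adjusted p = 0.09606). That of CD82 was lost without isotype at 1 µg/ml (0.28, adjusted p = 0.1407). CD28, ICOS, CD96 and CD40LG, receptors and a ligand of T cells, were the other 4 risers. TFRC, the transferrin receptor and an activation antigen of dividing cells, had 411 to 418 CPM in the combination and a slope difference of 0.05 ± 0.05 (adjusted p = 0.587). Only CRTAM of these 21 rose in anti-LAG3 and none in anti-PD1, where 0.0579% and 0.0837% of all genes rose. In the combination 1 of the 21 rose when either the isotype or the combination library at 1 µg/ml was left out, 2 without isotype at 0.01 µg/ml, and 5 when the lowest combination dose was left out.

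Of 10 tested genes whose products bind CD69 or work beside it, 0 rose and 1 fell in the combination by edgeR, 4 had a positive slope at an unadjusted p under 0.05, and DESeq2 called 0. The faller was KLF2, a transcription factor that drives S1PR1, at 8.73, 11.0 and 11.8 CPM in the combination at 1, 0.1 and 0.01 µg/ml and 12.9, 9.77 and 10.1 CPM in isotype. Its slope difference was -0.40 ± 0.11 (adjusted p = 0.0368). It was -0.16 (adjusted p = 0.980) without the isotype library at 1 µg/ml and -0.28 (adjusted p = 0.499) without the combination library at that dose, and it was also lost without either of these arms' libraries at 0.01 µg/ml. S1PR1 had 4.14 to 6.16 CPM in the combination and 4.58 to 4.88 CPM in isotype, with a slope difference of -0.002 ± 0.17 (adjusted p = 0.995). MYL12A, LGALS1 and SLC3A2, which encode a myosin light chain, galectin-1 and the heavy chain of the CD98 transporter, had slope differences of 0.14 ± 0.05, 0.63 ± 0.25 and 0.11 ± 0.05, none past the threshold. CD69 itself ranked 8 by p in this comparison.

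CD69 RNA carries AU-rich elements that mark it for decay. Tested were 14 genes for proteins that bind such elements or act more broadly in RNA decay or stability, so not all are binders of these elements. By edgeR 0 rose and 0 fell in the combination, with a median of 0.01, and 2 in each direction had an unadjusted p under 0.05. ELAVL1, which encodes the stabilising protein HuR, had a slope difference of -0.14 ± 0.04 (adjusted p = 0.0761), and RC3H2, which encodes roquin-2, of 0.25 ± 0.07 (adjusted p = 0.0647). RC3H2 had 0.49 (adjusted p = 0.00336) when the combination library at 1 µg/ml was left out, and 0.005 when that at 0.01 µg/ml was. ZFP36L1, which encodes a decay factor, had 0.11 ± 0.05 (adjusted p = 0.265).

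CD69 sits in the natural killer gene complex, mostly among C-type lectin genes, and 6 genes of the complex (KLRG1, CLEC2B, CLEC2D, CLEC7A, CLECL1 and the autophagy gene GABARAPL1) were expressed enough to be tested. None passed in the combination by edgeR, and 1 had an unadjusted p under 0.05 upward. CLECL1, the nearest neighbour at 19.2 kb, had 22.6, 22.1 and 21.3 CPM in the combination at 1, 0.1 and 0.01 µg/ml and 20.9, 21.1 and 23.7 CPM in isotype, a slope difference of 0.13 ± 0.08 (adjusted p = 0.383). CLEC2D, 52.9 kb away, encodes the ligand LLT1 and had 0.08 ± 0.05 (adjusted p = 0.430). CLEC2B, 92.1 kb away, encodes the ligand AICL and stood at 9.20, 7.28 and 6.16 CPM in the combination against 5.67, 5.56 and 5.32 CPM in isotype. It had a correlation of 0.93 with CD69 across the 12 libraries, but its slope difference of 0.25 ± 0.13 did not pass (adjusted p = 0.322). The slope of CD69 thus stood above those of the neighbours tested, which was not itself tested as a difference.

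Because CD69 is also a B cell activation antigen, 29 genes of B cell activation were counted. In the combination 6 rose (EGR1, EGR2, EGR3, NR4A1, TNFAIP3 and TRAF1) and 1 fell (MYC), with a median of 0.02. Of the risers, 5 are also on the T cell list of early genes, so these genes do not separate the lines. Without the combination library at 1 µg/ml 2 rose and 2 fell, 2 rose with isotype at 1 or at 0.01 µg/ml left out, and 3 rose when the lowest combination dose was left out. Of the 24 T cell markers, 5 rose (among them TRAC, CD5, CD6 and CD28) and 6 fell (LCK, CD3E, CD3G, TRBC2, THEMIS and BCL11B). Of the 28 B cell markers 0 did either by edgeR. At an unadjusted p under 0.05, 4 of these 28 were up and 5 down, beside 17.8% of all genes in either direction. TRAC, the constant part of the TCR alpha chain, had 284, 167 and 108 CPM in the combination at 1, 0.1 and 0.01 µg/ml and 119, 102 and 102 CPM in isotype.

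The genes most like CD69 were found by the Pearson correlation of log2 CPM over the 12 libraries, among 10121 genes of at least 5 CPM, as a description with no test, since the points share arms, doses and scaling. The median correlation was 0.01, 51 genes were above 0.9 and 7 below -0.9. The 12 highest ran from 0.98 to 0.95 and were EGR1, CASC15, SH2D2A, IER3, PRKCH, MICAL2, NR4A1, PTPN7, FGFR1, ATP9A, LCP2 and SLFN5. SH2D2A, the T cell adaptor TSAd, had 27.1, 11.2 and 5.22 CPM in the combination at 1, 0.1 and 0.01 µg/ml and 5.34, 4.25 and 5.21 CPM in isotype. The non-coding RNA CASC15 had 99.7, 55.7 and 34.8 CPM against 31.1, 33.9 and 35.3 CPM. ATP9A, a phospholipid flippase, had 118, 24.5 and 9.95 CPM in the combination, so its last step was far steeper than that of CD69. PTPN7, a phosphatase that acts on ERK, had 199, 160 and 135 CPM, a far flatter series. A high correlation therefore went with slopes from 0.34 for PTPN7 to 1.89 for ATP9A, against 1.03 for CD69. The 6 lowest, from -0.93 to -0.90, were NFIC, PTPRF, SSBP2, ATPAF1, AMER1 and MAP1A. AMER1, a regulator of beta-catenin, had 8.54, 13.1 and 17.4 CPM in the combination and 16.7, 17.7 and 14.7 CPM in isotype. By Spearman correlation 7 of the 12 highest and 2 of the 6 lowest were kept, and with a minimum of 1 CPM 7 and 5 were kept.

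**Figure D5:**
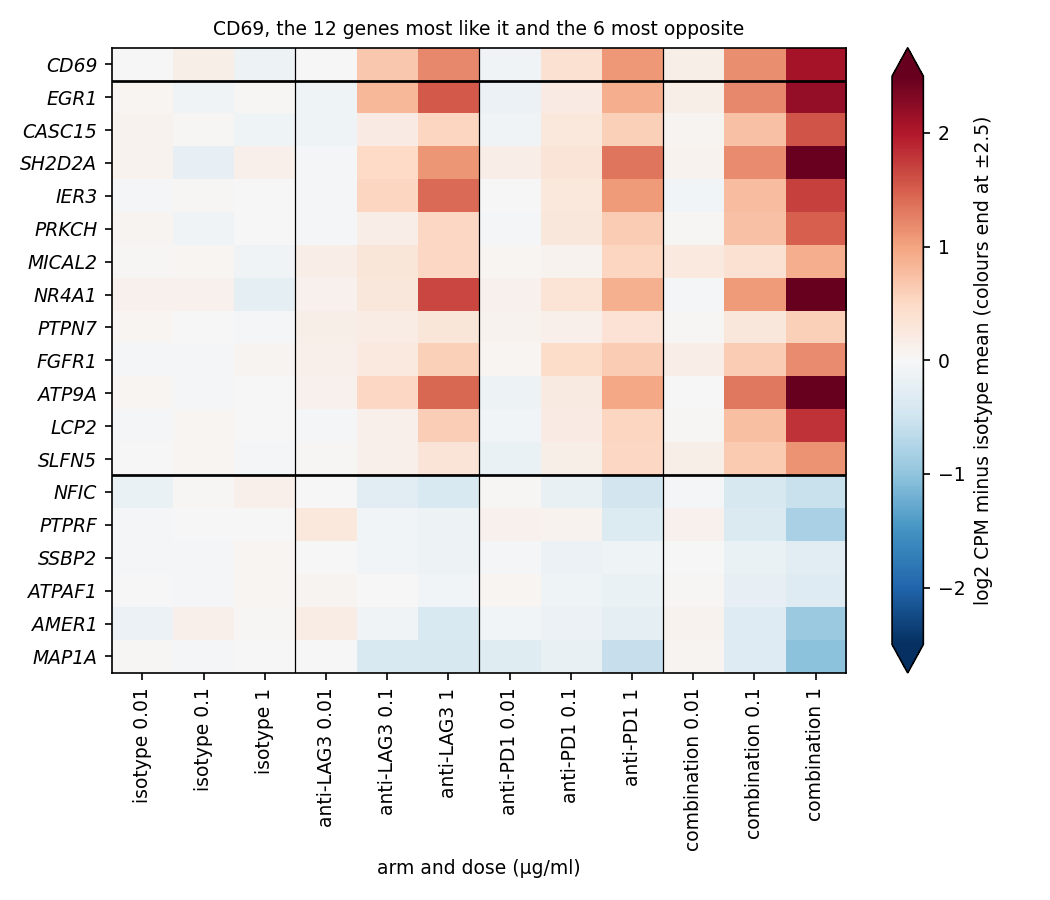
Log2 CPM minus the mean of the 3 isotype libraries (colour, with colours ending at 2.5 in either direction) for CD69 (top row), the 12 genes with the highest correlation with it and the 6 with the lowest, in all 12 libraries ordered by arm and dose in µg/ml. The upper genes are darkest red in the combination at 1 µg/ml, where CD69 had 52.2 CPM, and the lower genes are blue there.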

How the data were processed

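The tools named in the submitters' processing notes are STAR 2.5.2b, Trimmomatic 0.36, Subread 1.5.2 with featureCounts, and DESeq2, on the build GRCh38. Which annotation release and strand setting were used, and what was done with multi-mapping reads, is not given in the sources used here. The labels call the RNA polyA, while their extraction protocol describes total RNA. The authors deposited raw counts per gene symbol with a gene length. Its header reads length with no unit, and it was taken as base pairs. They also deposited, for each antibody library against the 3 isotype libraries, log2 fold changes with standard errors and p-values, raw and adjusted. Not used were 4 columns of the count table that were matched to no sample in the labels. Also not used were 36 columns headed by numbers in the authors' comparison tables.

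Libraries were grouped by the treatment label. The software was edgeR 4.0.16 in R 4.3.3. A filter on low counts (filterByExpr by arm, minimum count 10) left 15535 genes, and libraries were scaled by TMM. The quasi-likelihood test (robust) was fitted to all 12 libraries with a slope on log10 dose per arm, centred at 0.1 µg/ml (4 residual degrees of freedom), and with arm plus dose (6). Benjamini-Hochberg adjustment ran over all tested genes, with a threshold of 0.05. Log2 CPM used a prior count of 2. TPM was computed from the deposited counts and lengths. Poisson intervals (95%) cover counting error only, because PCR copies cannot be told from separate molecules here. The scripts were tested on simulated data. Alternatives were DESeq2 1.42.0 as scaling and as test, upper-quartile scaling, other count minimums, the marker balance as covariate and each library left out.

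CD69, the lists and the tests were chosen with earlier results of these data known. Named were CD69, the 12 most and 6 least correlated genes, for each list up to 4 members with the smallest p in the combination slope, and S1PR1, KLF2, EGR1, IL2RA, TFRC, CLEC2D and CLEC2B; other genes are named as members of a count, and 1 gene is not reported here by name.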

Additional observations from a re-analysis of the deposited data

Results flagged for a closer look

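The CD69 dose slope differed between antibody arms in 2 comparisons, by a test of the difference itself. The combination was steeper than anti-LAG3 by 0.365 log2 per 10-fold dose (SE 0.085, adjusted p = 0.0384 by edgeR), with CD69 at 52.2, 27.3 and 13.6 CPM against 28.1, 19.5 and 12.1 CPM at 1, 0.1 and 0.01 µg/ml. It was steeper than anti-PD1 by 0.37 (SE 0.088, adjusted p = 0.0481 by edgeR), where anti-PD1 had 26.0, 15.9 and 11.5 CPM. The excess over anti-LAG3 passed in 11 of 18 alternatives and that over anti-PD1 in 7 of 18, and both were positive in all 18.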

How the results depend on the processing

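The slope of the combination over isotype and its fitted difference at 1 µg/ml passed in all 19 and all 18 alternatives. The slope of the combination over anti-LAG3 did not pass with DESeq2 (0.37) or the marker covariate (0.34), and ran from 0.27 to 0.44 with 1 library left out. That over anti-PD1 did not pass with upper-quartile scaling (0.36), a minimum count of 30 (0.37), DESeq2 (0.38) or the marker covariate (0.29), and ran from 0.26 to 0.51 with 1 library left out. With 1 library left out, the slope over isotype ran from 0.45 to 0.87 in anti-LAG3 and from 0.45 to 0.87 in anti-PD1, and the fitted difference at 1 µg/ml from 0.93 to 1.43 and from 0.77 to 1.18. Values that were never called changed sign. The anti-PD1 minus anti-LAG3 slope was 0.001 with upper-quartile scaling, 0.052 with the marker covariate and -0.14 to 0.11 with 1 library left out; the arm mean difference was 0.083 with the covariate. At 0.01 µg/ml anti-LAG3 differed from isotype by 0.083 with the covariate and by -0.40 to 0.084 with 1 library left out, anti-PD1 by -0.55 to -0.13 and the combination by -0.25 to 0.17. The departure of the arm means ran from -0.26 to 0.55. The marker balance of the combination was -0.054 by the median of markers. The slope of S1PR1 in the combination was 0 with a minimum count of 30, 0.001 with DESeq2 and -0.563 to 0.57 with 1 library left out, and that of CD74 -0.288 to 0.001. The cause was not tested.

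With no replicate block (the dose term dropped), the arm mean of the combination over isotype was 1.33 (adjusted p = 0.885) and no CD69 call changed; the numbers shared between arms are the doses and pair nothing else. Genes called for the slope over isotype numbered 719 in the combination (34 to 955 over the alternatives, DESeq2 290), 11 in anti-LAG3 (1 to 71) and 41 in anti-PD1 (0 to 196). Of 31 named genes called in the combination slope, 25 lost the call under some alternative, 22 of them without isotype at 1 µg/ml.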
